A study of Mus musculus with 371 samples.

Results

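CD8 T cells from B16F10 melanoma tumours that carried transcripts of at least 2 of the checkpoint receptors Pdcd1, Havcr2, Lag3 and Tigit are described here and called members. They were chosen by those measured values: a receptor counted when it was at 1 FPKM (fragments scaled to transcript length and to all fragments of the cell) or more, in cells of the CD8 sort with at least 1000 genes at that level. The rule took 62 cells, 39 of the 90 CD8-sort cells of wild type (WT) mice and 23 of the 86 of mice labelled Il27ra knockout (KO) that passed the filter on genes. The other CD8-sort cells numbered 51 WT and 63 KO, and the whole series holds 94 WT and 90 KO cells of the CD8 sort and 94 and 93 of the CD4 sort before that filter. All mice were C57BL/6 with B16F10 tumours, a transplantable mouse melanoma line, and the T cells were taken from the tumour and profiled singly by Smart-seq2, a full-length cDNA method. The age of the mice, the day of harvest, how many mice gave the cells and the Il27ra allele are not given in the sources used here. In each genotype, all CD8-sort cells carry 1 name and the number 3 in their titles, and what the number stands for is not given. Each genotype is therefore taken as 1 sample of sorted cells, called a pool here, whether from 1 mouse or more. The genotype and the pool therefore cannot be told apart, no test was made, and the values describe the cells of these pools. Il27ra mRNA was at 1 FPKM or more in 22 of 39 WT and 14 of 23 KO members, and a value per gene cannot show a deleted part, so the table does not check the genotype label.

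PD-1 (Pdcd1), Tim-3 (Havcr2), Lag-3 and TIGIT are receptors on the T cell surface that dampen signals from the T cell receptor when they meet their ligands. They appear on activated T cells and stay on when antigen persists, as in tumours and chronic infection, where cells with several of them are often called exhausted. Within that state, stem-like cells keep the transcription factor TCF-1 (Tcf7), while terminal cells lose it and gain Tim-3. IL-27 is a cytokine that signals through Il27ra and gp130 to JAK kinases and to STAT factors such as STAT3, and it is known to induce several inhibitory receptors in T cells.

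The members had the transcripts of CD8 T cells. Cd8a or Cd8b1 was read in 38 of the 39 WT members and in all 23 KO members, and each of the 5 CD8 T cell markers in 82.6% to 97.4% of members of either pool. Cd4 was at 1 FPKM or more in 0 of 39 and 0 of 23 members, which allows shares of up to 7.69% and 13.04%, the limit that 3 cells of the total give (exact interval ends 9.03% and 14.8%). Of the 5 regulatory T cell markers, the factor Foxp3 was read in 0 of 39 WT and 1 of 23 KO members, and Ctla4 in 32 and 17. Ccr8 was read in 13 of 39 WT members and 0 of 51 other WT cells. In the KO pool Ccr8 was read in 5 of 23 members and 2 of 63 other cells. Il2ra was read in 10 WT members and 2 other WT cells, and in 2 KO members and 4 other KO cells. Ikzf2 was read in 10 and 7 WT cells and in 4 and 9 KO cells, in the same order. Of 8 macrophage and monocyte markers, no marker exceeded 8.70% of members in either pool, and the summed level had a median of 0 FPKM. The 6 natural killer cell markers had a median sum of 0 FPKM and a highest sum of 407 FPKM in WT and 53.6 FPKM in KO members, with 1 and 5 of them at 0. The 4 haemoglobin and other erythroid markers were at 0 in every CD8 cell. Xcr1 of the dendritic cell list was read in 12 of 39 WT and 9 of 23 KO members, against 15 of 51 and 13 of 63 other cells. Csf3r of the neutrophil list was read in 16 and 9 members, against 23 and 33 other cells, at most at 13.48 FPKM. Pecam1 of the endothelial list was read in 4 WT and 8 KO members, against 7 and 6 other cells. Tyr, a melanocyte gene, was at 1 FPKM or more in all 62 members, with a median of 6.64 FPKM over the CD8 cells. Of the other 6 melanoma markers, each was read in 0 to 5 of 39 WT and 1 to 4 of 23 KO members. Tyrp1 was read in 5 of 39 WT members against 0 of 51 other WT cells, and Dct in 5 against 1, while in the KO pool Tyrp1 was read in 1 of 23 members and 3 of 63 other cells and Dct in 2 and 3. Values without cells that had a marker of another cell type at 10 FPKM or more are given below where they change a sign. Tyr and Pecam1 were among those markers. That setting therefore also leaves out cells by their level of Tyr, and not only cells with rare markers. With Tyr included, the summed melanoma markers had medians of 7.5 FPKM in WT members, 7.89 in other WT cells, 7.93 in KO members and 7.51 in other KO cells, with the highest single cell at 362.1, 325.9, 4498 and 1606 FPKM.

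All 4 receptors were the commonest combination in WT members, and most KO members carried a pair. Among WT cells, 14 had 2 receptors, 7 had 3 and 18 had all 4, against 16, 4 and 3 KO cells. All 4 together made up 46.2% of WT members and 13.04% of KO members. The commonest KO combination was Pdcd1 with Tigit alone, in 9 of 23 KO members and 7 of 39 WT members. Pdcd1, Lag3 and Tigit without Havcr2 were found in 6 WT and 4 KO members. These values chose the cells and are given as a description.

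The share of members was 39 of 90 (43.3%, exact Clopper-Pearson 95% interval 32.9% to 54.2%) in the WT pool and 23 of 86 (26.7%, 17.8% to 37.4%) in the KO pool. All intervals here cover counting error only, and those of the members overlap between pools. Cells with a single receptor went the other way, 22 of 90 WT (24.4%, 16% to 34.6%) and 44 of 86 KO cells (51.2%, 40.1% to 62.1%), and that receptor was Tigit in 17 and 34 of them. Of all WT cells with Tigit, 36 of 53 were members (67.9%, 53.7% to 80.1%), against 20 of 54 in the KO pool (37.04%, 24.3% to 51.3%). Of cells with Pdcd1, 34 of 36 WT and 19 of 23 KO cells were members. Among cells with at least 1500 and under 2500 detected genes, a range chosen after the data were seen, the member shares were 25.9% in WT and 23.9% in KO. WT cells with 3 or 4 receptors had more detected genes than most cells of that range.

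**Figure D1:**
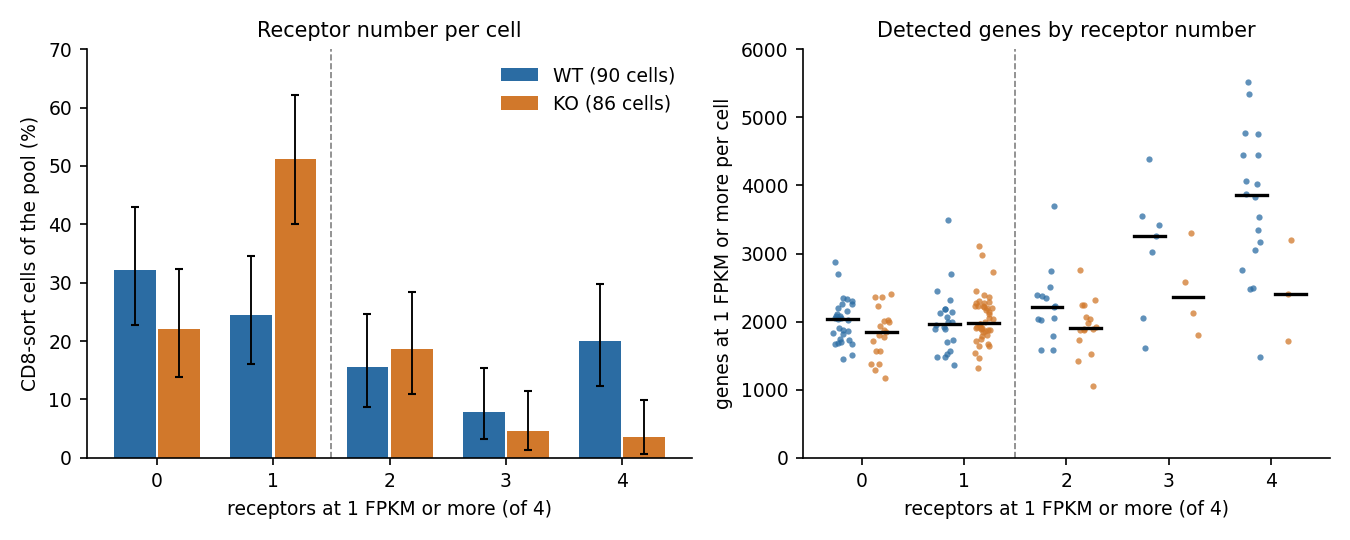
Left, percent of the CD8-sort cells of each pool (WT, 90 cells; KO, 86 cells) by the number of the 4 receptors at 1 FPKM or more, with exact 95% intervals; right, genes at 1 FPKM or more in each cell (points) and their medians (bars). Cells right of the dashed line are members, and the WT cells with 4 receptors have a median of 3853.5 detected genes against 2038 in WT cells with none.

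Pdcd1 (mm10 chromosome 1, 94038305 to 94052553, minus strand) was read in 34 of 39 WT members, at 102.5 to 3132 FPKM with a median of 739 where detected. In KO members it was read in 19 of 23, at 3.21 to 2484 FPKM with a median of 831. Where Pdcd1 was read, the levels of both pools overlapped over most of their range. Lag3 (chromosome 6, 124904361 to 124911705, minus strand), which binds MHC class II and other ligands, was read in 28 WT members at a median of 831 FPKM and in 12 KO members at a median of 330.2 FPKM. The lowest and highest Lag3 values where detected were 5.14 and 3858 FPKM in WT and 1.16 and 2616 FPKM in KO members. Havcr2 (chromosome 11, 46454935 to 46481255, plus strand) was read in 23 WT members at 1.04 to 1104 FPKM, median 238.8, and in 5 KO members at 1.52 to 324.1 FPKM, median 128.4. Tigit (chromosome 16, 43648867 to 43664146, minus strand) was read in 36 WT members at a median of 670.2 FPKM and in 20 KO members at a median of 551 FPKM. Havcr2 was thus the receptor whose share differed most, 58.97% of WT members (42.1% to 74.4%) against 21.7% of KO members (7.46% to 43.7%).

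In the other CD8 cells, Tigit was common and the other receptors rare. Tigit was read in 17 of 51 WT and 34 of 63 KO cells outside the members. Pdcd1, Havcr2 and Lag3 were each read in 1 or 2 of 51 WT and 2 to 4 of 63 KO cells outside. Some members lay close to the threshold: the second-highest receptor was between 1 and 10 FPKM in 9 WT and 7 KO members. The lowest values just inside were 1.04, 1.16 and 1.84 FPKM in WT and 1.16, 1.30 and 1.52 FPKM in KO members. Just outside, the highest second receptor was at 0.29 FPKM in the WT pool and at 0.96, 0.93 and 0.85 FPKM in the KO pool. Tigit in WT members with exactly 2 receptors was one such low value, with a median of 7.49 FPKM where detected against 997 FPKM in WT members with 3 or 4.

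The number of detected genes differed between the cells compared. WT members had a median of 3024 detected genes (1477 to 5520) and other WT cells 1993 (1358 to 3490), while KO members had 1984 (1061 to 3303) and other KO cells 1950 (1178 to 3114). In WT, members with exactly 2 receptors had a median of 2219.5 and those with 3 or 4 had 3538, and 9 WT members but no other CD8 cell had 4000 genes or more. Read totals per cell are not used here, and more RNA in a cell and more reads from it cannot be told apart. Differences below are therefore also given within bins of 500 detected genes for the gene lists and for many of the genes, and a single value is over all cells. In the bins, 25 of the 39 WT members have counterparts, and all 23 KO members do.

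Beyond the selecting receptors, members of both pools had more mRNA of Ctla4, Cxcr6, Anxa2, S100a4, Capg and Lgals3 and less of Tcf7, Bcl2, Ly6c2 and Lef1. A gene was measured when at least 20% of members or of other cells in each pool had it at 1 FPKM or more, which 3979 genes met, and differences are of mean log2(FPKM + 1). Of these genes, 1729 (43.5%) were at least 1 higher in WT members and 70 (1.76%) at least 1 lower. In the KO pool, 577 (14.5%) were at least 1 higher and 6.33% at least 1 lower. In both pools at once, 402 genes (10.1%) were higher and 26 (0.653%) lower by at least 1. The median over all measured genes was 0.85 in WT, -0.01 within bins, and 0.15 in KO, 0.05 within bins. Within bins, 89 of the 402 higher and 20 of the 26 lower genes were still past 1 in both pools, among 98 higher and 79 lower genes there. Across the 3979 genes, which are not independent replicates, the differences of both pools had a Pearson correlation of 0.34, and 0.24 within bins.

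**Figure D2:**
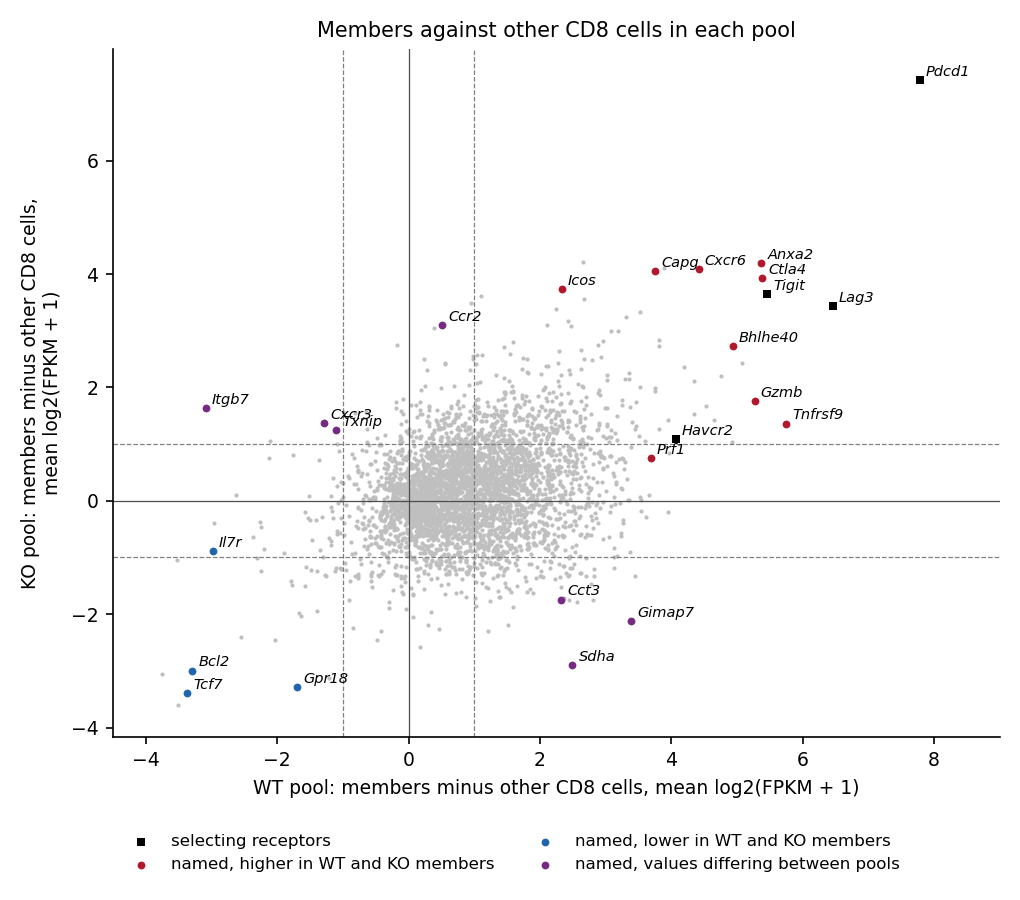
Each point is 1 of 3979 genes, placed by the difference of mean log2(FPKM + 1) between members and other CD8 cells in the WT pool (x) and in the KO pool (y); dashed lines mark 1 and -1. Named genes such as Ctla4 and Anxa2 lie high in both pools, Tcf7 and Bcl2 low in both, and Itgb7, Sdha and Gimap7 have opposite signs.

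Ctla4, which encodes the inhibitory receptor CTLA-4, was read in 32 of 39 WT members (median 189.4 FPKM, highest 1791) and 10 of 51 other WT cells (median 0, highest 339.7). In the KO pool it was read in 17 of 23 members (median 311.7 FPKM, highest 2128) and 24 of 63 other cells (median 0, highest 2997). Its difference was 5.38 in WT (4.38 within bins) and 3.93 in KO (3.31), with overlapping ranges in both pools. The other inhibitory receptors were less uniform. Of 8 measured in both pools, 5 were at least 1 higher in WT and 3 in KO members, against 43.5% and 14.5% of all genes. Their medians were 1.93 (0.42 within bins) and 0.56 (0.39). Besides Ctla4, Lilrb4, an immunoglobulin-like receptor, was higher in both (1.62 and 1.40), and so was Klrc1, the NKG2A gene (2.25 and 1.20, but -0.40 within bins in WT). Entpd1, the ectoenzyme CD39, differed by 2.55 in WT and 0.79 in KO. Cd96, an adhesion receptor that shares ligands with TIGIT, differed by 2.44 in WT and -1.01 in KO, and Cd5 by 0.78 and -1.07. The VISTA gene, listed as 4632428N05Rik, differed by 0.43 and -0.87, and Cd274, which encodes PD-L1, by -0.61 and 0.33.

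Co-stimulatory receptors stood high as well. Of 9 measured, 8 were at least 1 higher in WT and 6 in KO members, against 43.5% and 14.5% of all genes. Their medians were 2.01 (0.85 within bins) and 1.36 (1.05). Icos, a CD28 family receptor, was read in 29 of 39 WT members (median 64.9 FPKM, highest 1191) and 22 of 51 other WT cells (median 0, highest 1037). Its KO values were 19 of 23 members (median 249.8 FPKM, highest 1358) and 26 of 63 other cells (median 0, highest 2002). The difference was 2.33 in WT and 3.74 in KO, and 1.94 and 3.61 within bins. Tnfrsf9, which encodes 4-1BB, was read in 25 of 39 WT members (median 289.3 FPKM, highest 4986) but in 2 of 51 other WT cells. In the KO pool, Tnfrsf9 was read in 6 of 23 members and 4 of 63 other cells, so its difference was 5.75 in WT (2.81 within bins) and 1.36 in KO (1.05). Tnfrsf18, which encodes GITR, differed by 3.29 in WT, but by -0.22 within bins, and by 2.15 in KO.

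Transcription factors of effector and exhausted cells were higher in WT members. At least 1 higher were 13 of 13 measured in WT and 4 of 13 in KO members, against 43.5% and 14.5% of all genes. The list medians were 2.12 (0.99 within bins) and 0.53 (0.71). Bhlhe40, a factor of tissue-resident and cytokine-producing T cells, was read in 29 of 39 WT and 15 of 23 KO members against 12 of 51 and 20 of 63 other cells. Its difference was 4.93 in WT (3.09 within bins) and 2.74 in KO (2.89). Tox, a factor that supports the exhausted state, was read in 22 of 39 WT members and 9 of 51 other WT cells, and in 7 of 23 KO members and 9 of 63 other KO cells. The Tox difference was 3.14 in WT, 0.49 within bins, and 1.20 in KO, 1.22 within bins. Ikzf3, the Aiolos gene, differed alike in both pools (1.70 and 1.66). Id2 differed by 2.27 and 1.55, though by -0.77 within bins in WT. Tbx21, which encodes T-bet, was read in 26 of 39 WT members against 10 of 51 other WT cells, a difference of 3.25 (2.53 within bins), and in 7 of 23 KO members against 18 of 63 other KO cells, a difference of 0.21. The remaining 8 of the 13 (Nr4a1, Nr4a2, Nr4a3, Batf, Nfatc1, Rbpj, Runx3 and Nfil3) differed by 1.02 to 3.16 in WT and by -0.49 to 0.92 in KO.

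Cytotoxic granule genes had medians above 0 in members of both pools, larger in WT than in KO over all cells but not within bins. Of 13 measured, 10 were at least 1 higher in WT and 6 in KO members, against 43.5% and 14.5% of all genes. Their medians were 2.12 (0.70 within bins) and 0.98 (0.85). Gzmb, which encodes granzyme B, was read in 26 of 39 WT members (median 300.9 FPKM, highest 9900.3) and 8 of 51 other WT cells (highest 728), a difference of 5.27 (1.88 within bins). In the KO pool, Gzmb was read in 9 of 23 members (median 0, highest 3028) and 12 of 63 other cells, a difference of 1.76 (1.96). Serpinb9, an inhibitor of granzyme B, differed by 2.43 in WT (0.66) and 3.18 in KO (3.01). Prf1, which encodes the pore protein perforin, differed by 3.68 in WT (0.97) and 0.76 in KO (0.81). Of 15 effector cytokines and chemokines, none was measured in both pools, and Ifng was read in 18 of 39 WT members and 3 of 51 other WT cells, against 3 of 23 and 6 of 63 KO cells. Csf1, a macrophage growth factor, was read in 18 of 39 WT and 2 of 23 KO members and in 0 of 51 and 0 of 63 other cells, which allow up to 5.88% and 4.76%.

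Among genes of homing and residence in tissue, Cxcr6 had the second-ranked shared difference of all genes outside the selecting receptors, after Anxa2. Cxcr6, a chemokine receptor of resident T cells, was read in 29 of 39 WT members (median 674 FPKM, highest 5364) and 15 of 51 other WT cells (highest 1849). The KO counts were 17 of 23 members (median 473 FPKM, highest 2512) and 21 of 63 other cells (highest 3003). Its difference was 4.41 in WT (1.72 within bins) and 4.09 in KO (3.96). Rgs1, a regulator of G protein signalling, differed by 2.88 and 2.74, and Rgs16 of the same family by 4.75 and 2.21. Over the 12 genes of this list measured in both pools, the medians were 1.32 (0.89 within bins) and 1.52 (1.21). Of the 12, 4 were at least 1 higher in both pools, against 10.1% of all genes. Among the 12 top-ranked genes over both pools were also Anxa2 and S100a4, a calcium-dependent membrane-binding protein and its relative in motile cells, Capg, an actin-capping protein, and the galectin genes Lgals1 and Lgals3. Anxa2 differed by 5.37 in WT (2.35 within bins) and 4.20 in KO (3.76), S100a4 by 3.88 (0.94) and 4.11 (4.05), and Capg by 3.75 (0.63; -1.01 for WT members with exactly 2 receptors) and 4.06 (3.66). Lgals3 differed by 3.30 (2.25) and 3.24 (3.23).

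Naive and memory genes had the lowest list median in members of both pools. Of 15 measured, 11 were at least 1 lower in WT and 10 in KO members, and 9 in both. Of all genes, 1.76%, 6.33% and 0.653% were that much lower in WT, in KO and in both. In each pool 1 gene of the list was at least 1 higher, Cd27 (3.12) in WT and Txnip (1.24) in KO. The medians were -1.67 (-1.11 within bins) and -1.31 (-1.41). Within bins, the ribosomal protein list (-0.52 in WT and -0.75 in KO) and the activation induced early genes (-0.32 and -0.87) were below 0 in both pools too. Tcf7 (mm10 chromosome 11, 52252371 to 52283014, minus strand) was read in 11 of 39 WT members (median 0, highest 951 FPKM) and 36 of 51 other WT cells (median 227.3 FPKM, highest 1165). In the KO pool it was read in 8 of 23 members (median 0, highest 544 FPKM) and 48 of 63 other cells (median 163.2 FPKM, highest 1151). The Tcf7 differences were -3.37 and -3.39, and -1.92 and -3.36 within bins, with overlapping ranges in both pools. Bcl2, a survival factor, was read in 11 of 39 WT and 3 of 23 KO members against 38 of 51 and 33 of 63 other cells, with differences of -3.30 and -2.996 that were -3.32 and -3.10 within bins. Lef1, a partner of TCF-1, differed by -2.03 and -2.46, Ccr7, the lymph node chemokine receptor, by -1.63 and -2.03, and Ly6c2, a memory cell antigen, by -3.75 and -3.06. Without cells that had a marker of another cell type at 10 FPKM or more, Tyr included, the KO difference of Ly6c2 was 0.96. That setting left 16 WT and 8 KO members. Il7r, the IL-7 receptor, differed by -2.98 in WT (-2.16 within bins) and -0.89 in KO (-1.07), and S1pr1, the exit receptor for lymph, by -3.52 (-2.18) and -1.04 (-0.80).

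**Figure D3:**
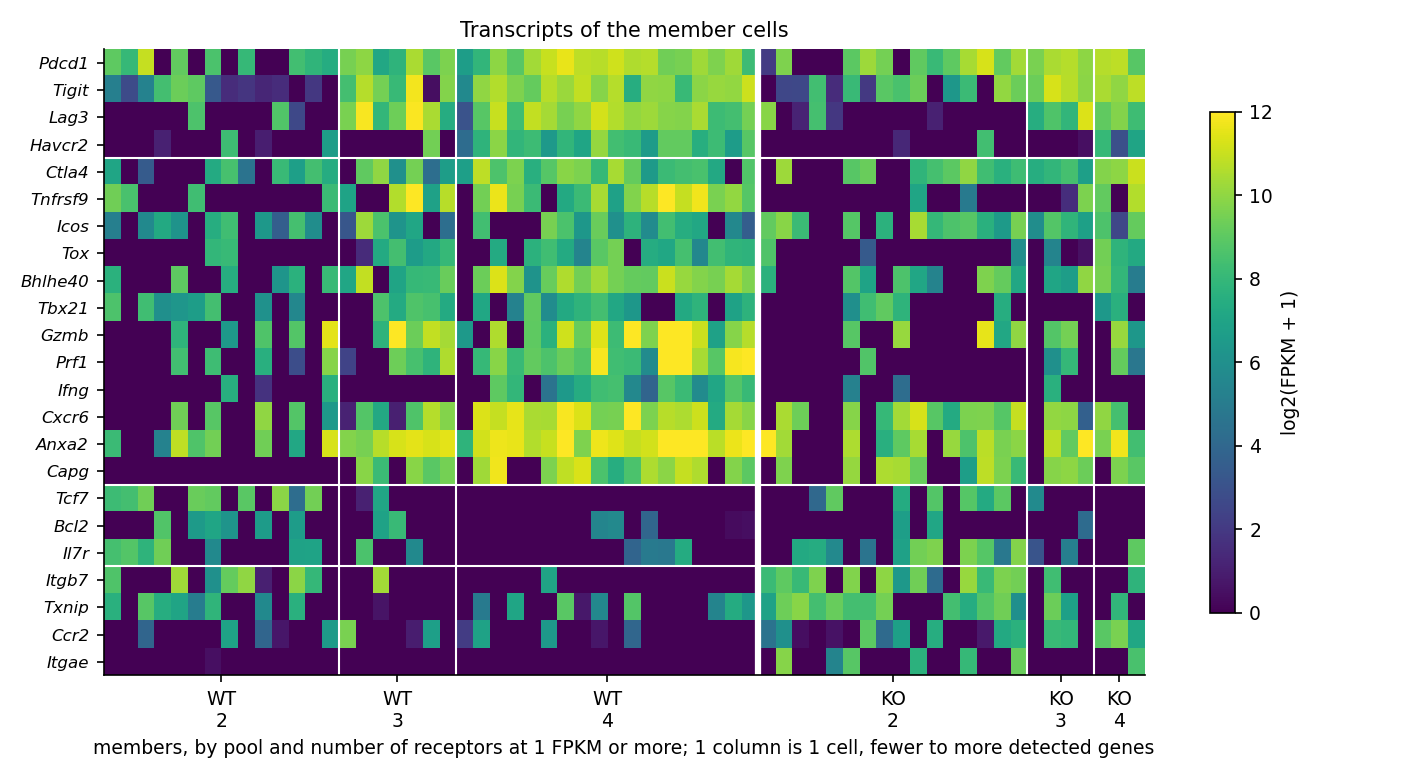
Each column is 1 of the 62 members, ordered by pool (39 WT, then 23 KO), number of receptors and detected genes, and colour gives log2(FPKM + 1) of 23 genes, with values above 12 shown as 12. In the 18 WT cells with 4 receptors Tcf7 is at 0 and Anxa2 is present in each, while Itgb7 is seen in 15 of 23 KO members and in 8 of the 14 WT members with 2 receptors.

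Tcf7 and Havcr2 divided the WT members without overlap. Of 39 WT members, 11 had Tcf7 without Havcr2 (28.2%, 15% to 44.9%), 23 had Havcr2 without Tcf7 (58.97%, 42.1% to 74.4%), 5 had neither and 0 had both, which allows up to 7.69%. Of 23 KO members, 6 had Tcf7 alone (26.1%, 10.2% to 48.4%), 3 Havcr2 alone (13.04%, 2.78% to 33.6%), 2 both and 12 neither (52.2%, 30.6% to 73.2%). The share with Tcf7 alone thus differed little, and the KO members without Havcr2 mostly lacked Tcf7 as well. Havcr2 was read in fewer cells of the KO pool, and it was among the values that chose the cells.

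The WT subgroups differed in the following genes. Gzmb was read in 2 of 11 Tcf7 cells and 20 of 23 Havcr2 cells, Prf1 in 2 and 20, Ifng in 0 and 18, and Tnfrsf9 in 3 and 18. Il7r was read in 7 of 11 and 5 of 23, and Slamf6, a surface marker of stem-like cells, in 7 of 11 and 5 of 23. Ctla4, by contrast, was read in 9 of 11 and 20 of 23. The 5 WT members with neither gene had Prf1 in 5, Gzmb in 4, Tnfrsf9 in 4, Ifng in 0, Il7r in 1 and Slamf6 in 0. The median number of detected genes was 2208 in the Tcf7 cells and 3552 in the Havcr2 cells, and its part in these counts was not tested. In KO members, the 12 cells with neither gene had Cxcr6 in 10, Icos in 11, Bhlhe40 in 8 and Ctla4 in 9, with Gzmb in 4.

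The number of receptors went with further genes in WT. Between WT members with 3 or 4 receptors and those with exactly 2, the median difference over all 7064 measured genes was 0.90. Those with 3 or 4 also had more detected genes, a median of 3538 against 2219.5. The values here are over all cells and not within bins, and the part of detected genes in them was not tested. Capg was read in 19 of 25 members with 3 or 4 and in 0 of 14 with exactly 2, a difference of 7.42. Anxa2 was read in 25 of 25 and 8 of 14 (6.16), Cxcr6 in 24 of 25 and 5 of 14 (5.94), Bhlhe40 in 23 of 25 and 6 of 14 (5.30), and Tox in 20 of 25 and 2 of 14 (4.71). Tcf7 ran the other way, in 2 of 25 against 9 of 14 (-5.16), and so did Itgb7, in 2 of 25 against 8 of 14 (-3.81). Ctla4 and Icos differed less, by 3.31 and 0.74. In KO, members with exactly 2 receptors had Capg in 9 of 16, Cxcr6 in 12 of 16 and Tcf7 in 7 of 16 cells. All 23 KO members, which include those 16 cells, had these genes in 14, 17 and 8.

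Transcripts of cycling cells were found mainly in WT members. Mki67 or Top2a, a proliferation antigen and a topoisomerase of dividing cells, was read in 18 of 39 WT members (46.2%, 30.1% to 62.8%) and 6 of 51 other WT cells (11.8%, 4.44% to 23.9%). In the KO pool it was read in 2 of 23 members (8.70%, 1.07% to 28.04%) and 5 of 63 other cells (7.94%, 2.63% to 17.6%). WT members with 3 or 4 receptors held 15 of the 18. The cell cycle list had a median of 1.46 in WT members against other cells and -0.02 within bins, and of -0.06 in KO. Glycolysis genes differed in both pools. At least 1 higher were 12 of 12 in WT and 6 of 12 in KO members, against 43.5% and 14.5% of all genes. Their median was 2.86 in WT, 0.40 within bins, and 0.83 in KO. The respiratory chain list had 23 of 25 genes at least 1 higher in WT and 2 of 25 in KO members, beside the same shares of all genes. Its median was 2.05 in WT, 0.11 within bins, and -0.12 in KO. In WT, each of these 3 lists thus had a much smaller median within bins. Tpi1, a glycolytic isomerase, differed by 4.65 in WT over all cells, by 0.80 within bins and by -0.29 for members with exactly 2 receptors.

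**Figure D4:**
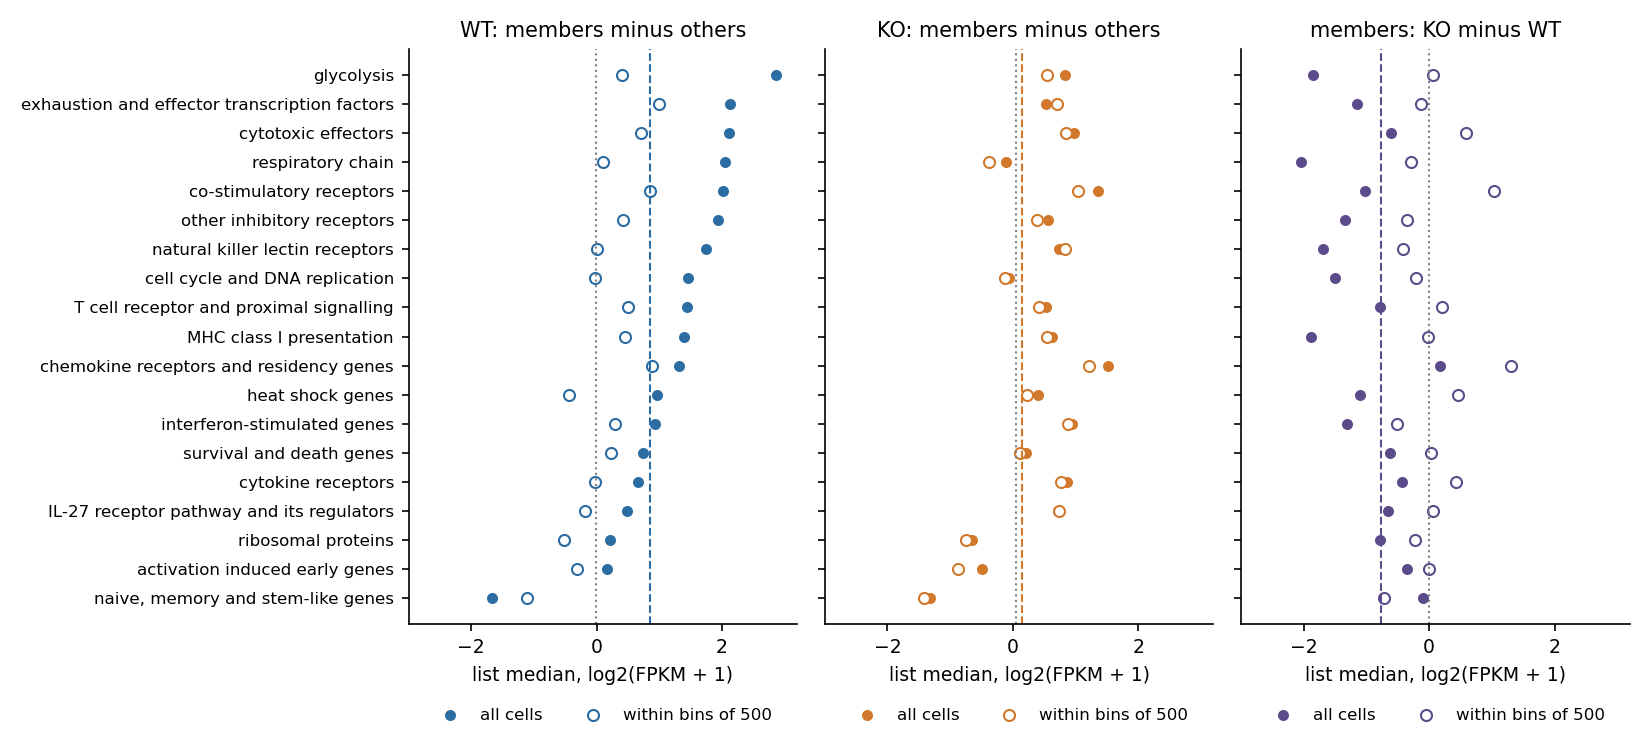
Median difference of each gene list in mean log2(FPKM + 1), for members minus other CD8 cells in WT and in KO and for KO minus WT members; filled points use all cells, open points cells within bins of 500 detected genes. Dashed and dotted lines are the medians of all measured genes over all cells and within bins, and the naive, memory and stem-like list lies lowest in both pools, at -1.67 in WT.

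Inside the members, KO against WT, most genes had a lower mean in KO. A gene was measured here when at least 20% of WT or of KO members had it at 1 FPKM or more. A gene that reached this share in 1 pool only thus entered through the pool where it was read more often. Of 6046 genes measured, 1.8% were at least 1 higher and 2341 (38.7%) at least 1 lower in KO members. Within bins, 727 (12%) were higher and 571 (9.44%) lower. Between members with exactly 2 receptors, 4865 genes were measured, of which 523 (10.8%) were higher and 1265 (26%) lower. The median of all genes was -0.76, but 0.00 within bins and -0.38 between members with exactly 2 receptors, so values are read against those medians. Of the higher genes over all cells, 95 were also at least 1 higher within bins. Of these 95, 85 were so among members with exactly 2 receptors too. Of the 2341 lower genes, 537 were also at least 1 lower within bins. Of these 537, 433 were so among members with exactly 2 receptors too. The cycling share differed between the pools as given above. Without cells with Mki67 or Top2a, 5.43% of 4773 measured genes were higher and 28.5% lower by at least 1.

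Of the 12 genes with the highest difference in KO members, 5 were integrins and chemokine receptors of homing. Itgb7, the beta 7 chain of gut and skin homing integrins, was read in 15 of 23 KO members (median 272.7 FPKM, highest 1118) and 10 of 39 WT members (median 0, highest 1294). The difference was 3.51, 2.37 within bins and 2.49 among members with exactly 2 receptors. Its partner Itgae, the CD103 chain of resident T cells, was read in 7 of 23 KO members (highest 899 FPKM) and in 0 of 39 WT members (highest 0.39 FPKM), a share of up to 7.69% being allowed. Itgb1 was read in 17 of 23 KO and 21 of 39 WT members, a difference of 2.54 (3.15 within bins, 1.62 with exactly 2). Ccr2, an inflammatory chemokine receptor, was read in 13 of 23 KO members (median 22.8 FPKM, highest 774) and 10 of 39 WT members (median 0, highest 763), a difference of 2.67 (2.71 and 1.85). Cxcr3, the receptor for interferon-induced chemokines, was read in 12 of 23 and 13 of 39, a difference of 2.37 (2.11 and 1.83). Over the 14 measured genes of homing and residence, 5 were at least 1 higher and 3 at least 1 lower, against 1.8% and 38.7% of all genes. Their median was 0.18 against -0.76 for all genes, and 1.31 within bins against 0.00.

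Other genes near the top were Txnip, an inhibitor of thioredoxin that is high in resting cells, and Klhl6, a lymphocyte adaptor of ubiquitin ligases. Txnip was read in 16 of 23 KO members (median 237.4 FPKM) and 16 of 39 WT members (median 0), a difference of 2.93 (2.50 within bins, 2.79 with exactly 2). Klhl6 was read in 14 of 23 and 8 of 39, a difference of 2.96 (2.79 and 2.84). Icos differed by 1.58 (2.50 and 1.85), and Il7r by 2.11 (1.46 and 1.38). Tcf7 differed by 0.43, but by -1.09 within bins and -2.09 with exactly 2 receptors. The naive and memory list had 3 of 13 genes at least 1 higher and 3 at least 1 lower, against 1.8% and 38.7% of all genes. Its median of -0.10 lay above that of all genes (-0.76), but within bins it was -0.72 against 0.00, and with exactly 2 receptors -0.43 against -0.38.

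Among the 12 genes with the lowest difference in KO members were Prf1, Cst7 and Tnfrsf9. Of their lists and the heat shock list, 5 of 13 cytotoxic, 6 of 11 co-stimulatory and 5 of 9 heat shock genes were at least 1 lower, against 38.7% of all genes. Within bins the list medians were 0.59, 1.04 and 0.46, above 0. Prf1 was read in 27 of 39 WT members (median 285.7 FPKM, highest 5414) and 5 of 23 KO members (median 0, highest 577), and the ranges overlapped. The Prf1 difference was -4.55, -1.25 within bins and -2.09 with exactly 2 receptors. Cst7, an inhibitor of granule proteases, differed by -3.92 (-1.62 and -1.10), while Gzmb differed by -2.92 over all cells, 1.13 within bins and -0.11 with exactly 2. Tnfrsf9 differed by -4.22 (-1.85 and -1.71). Tbx21 differed by -2.60 (-2.23 and -1.59) and Cd27, a co-stimulatory receptor, by -1.69 (-1.20 and -1.91), but by 0.41 without cells that had a marker of another cell type.

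Sdha, Cct3 and Gimap7 were lower in KO members by over 2 within bins and with exactly 2 receptors as well. Sdha, a subunit of succinate dehydrogenase, was read in 32 of 39 WT members (median 211.2 FPKM, highest 859) and 5 of 23 KO members (median 0, highest 302.6), a difference of -4.65 (-3.33 within bins, -4.62 with exactly 2). Cct3, a chaperonin subunit, was read in 32 of 39 and 7 of 23, a difference of -4.67 (-2.94 and -4.75). Gimap7, a GTPase of lymphocytes, was read in 26 of 39 and 3 of 23, a difference of -4.28 (-4.32 and -3.58). Hsp90aa1, a heat shock chaperone, differed by -4.10 (-2.57 and -3.32). In the other CD8 cells, Sdha was read in 26 of 51 WT and 36 of 63 KO cells, and Gimap7 in 14 of 51 and 25 of 63, so the lower KO share was not seen outside the members.

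**Figure D5:**
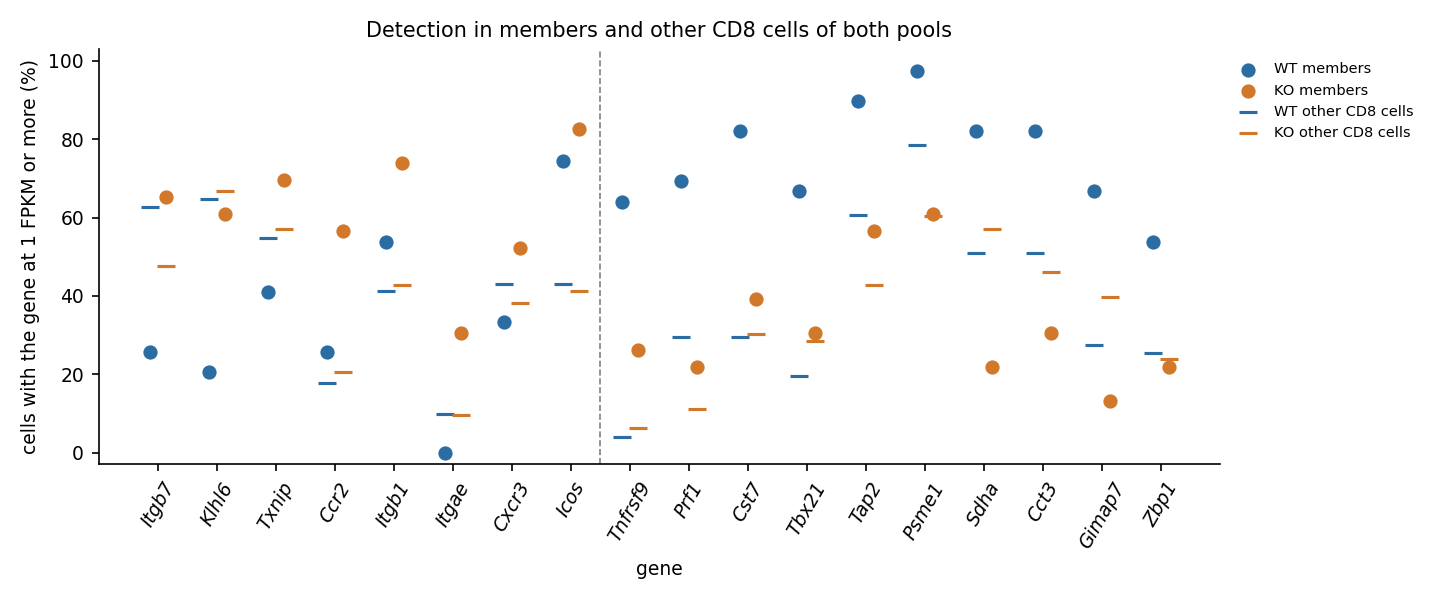
Percent of cells with 18 genes at 1 FPKM or more in WT members (39) and KO members (23), as points, and in the other CD8 cells of each pool (51 WT, 63 KO), as horizontal marks. Genes left of the dashed line have a higher mean in KO members and those right of it a lower one, and Sdha and Gimap7 are below the other KO cells in KO members but above the other WT cells in WT members.

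Antigen presentation and interferon-induced genes had low medians in KO members over all cells. Of 15 MHC class I presentation genes, 11 were at least 1 lower and 0 at least 1 higher, against 38.7% and 1.8% of all genes, with a median of -1.89, -0.02 within bins and -1.21 with exactly 2 receptors. Psme1, an activator of the immunoproteasome, was read in 97.4% of WT and 60.9% of KO members, a difference of -3.26 (-2.83 and -3.32). Tap2, a chain of the peptide transporter, differed by -3.25 (-2.38 and -2.27), and Psmb10, an immunoproteasome subunit, by -3.24 (-2.05 and -2.03). The class I chain H2-D1 differed by 0.06 and H2-K1 by 0.12. Of 22 interferon-stimulated genes, 12 were at least 1 lower and 2 at least 1 higher, with a median of -1.31 (-0.51 within bins, -1.10 with exactly 2). Zbp1, a sensor of unusual nucleic acid, differed by -2.29 (-2.66 and -1.81) and Irf7, a transcription factor of the interferon response, by -2.26 (-1.92 and -1.999), while Ifi27l2a differed by 2.06 (2.62 and 1.79), but by -1.15 without cells that had a marker of another cell type at 10 FPKM or more. Bst2, which encodes tetherin, differed by -2.28, -0.43 within bins and -1.21 with exactly 2.

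Among the other inhibitory receptors, 0 of 12 were at least 1 higher and 7 at least 1 lower in KO members, against 1.8% and 38.7% of all genes, with a median of -1.34, -0.36 within bins. Ctla4 differed by -0.03 (1.93 within bins and 1.10 with exactly 2), and its range of 0 to 2128 FPKM in KO members covered that of 0 to 1791 FPKM in WT members. Cd244, which encodes 2B4, was read in 12 of 39 WT and 0 of 23 KO members, and Cd200r1 in 8 and 0. For both, a share of up to 13.04% in KO members is allowed. Cd160 was read in 14 of 39 WT members and 1 of 23 KO members. Cd244, Cd200r1 and Cd160 reached the 20% share in WT members only, so the filter itself favoured a lower KO value for them. In WT, 11 of the 12 members with Cd244 and 8 of the 8 with Cd200r1 had 3 or 4 receptors.

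The transcription factor list had 0 of 17 genes at least 1 higher and 11 at least 1 lower in KO members, against 1.8% and 38.7% of all genes, with a median of -1.16 over all cells and -0.13 within bins. Prdm1, Eomes and Ikzf2 of this list reached the 20% share in WT members only, so the filter favoured a lower KO value for them too. Tox differed by -2.06 over all cells but by 0.34 within bins and -0.02 with exactly 2 receptors. Rbpj, the nuclear effector of Notch, differed by -2.63 (-0.71 and -0.41). Tbx21, given above, and Nfatc1, a target of calcium signalling (-1.63, -1.15 and -2.23), were the members of the list that stayed at least 1 lower within bins.

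Of the IL-27 receptor pathway and its regulators, 12 genes were measured between the members. In KO members 1 was at least 1 higher and 3 at least 1 lower, against 1.8% and 38.7% of all genes. The list median was -0.65, 0.07 within bins and 0.10 with exactly 2 receptors. Il27ra itself had a median of 10.6 FPKM (highest 247.8) in WT members and 32.6 FPKM (highest 367.8) in KO members, a difference of 0.55 (1.63 and 1.38). The kinases Jak1, Jak2 and Tyk2 differed by -0.15, -0.13 and -0.99. Stat3, a main carrier of the IL-27 signal, differed by -0.68 (0.78 and 1.39), Stat5a by -1.30 (-0.31 and -1.38) and Stat5b by 1.22 (1.74 and 1.63). The feedback inhibitors Socs1 and Socs3 differed by 0.23 and -0.91. Prdm1, which encodes Blimp-1, was read in 9 of 39 WT and 1 of 23 KO members. Against the other cells of their own pool, members had more Stat3 in both pools (1.75 in WT, 0.29 within bins; 2.51 in KO, 2.18 within bins) and more Tyk2 (1.90 and 1.13), and less Socs3 (-1.40, -0.26 within bins; -1.95, -1.86 within bins). In WT members with exactly 2 receptors the signs were opposite, -1.05 for Stat3 and 0.61 for Socs3. Il10ra, the IL-10 receptor chain, was also higher in members of both pools, by 3.03 in WT and 2.14 in KO.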

How the data were processed

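Single CD8-sort and CD4-sort T cells from B16F10 tumours were profiled by Smart-seq2, per the labels' protocols. The authors deposited 1 table of FPKM values. Per the submitters' processing notes, Bowtie, RSEM and the mm10 genome were used, and the file names TMM as the scaling between cells. Versions are not given in the sources used here. TMM moves all genes of a cell together, so a cell rich in detected genes can shift. The table holds 23366 gene lines, of which 4 with a repeated symbol were left out, and 4 population columns were not used. Read totals are not in the table, so the number of genes at 1 FPKM or more was used in their place. That number cannot separate more reads from more RNA in a cell. Shares carry exact 95% intervals. The lists, the members and the rule for named genes were chosen with earlier results of these data known. Named genes are the measured inhibitory receptors, transcription factors and IL-27 pathway genes, the 12 highest and 12 lowest in each comparison and up to 4 in each other list. Besides these and the cell type markers, H2-D1, H2-K1, Slamf6, Mki67 and Top2a were picked after their values were seen. Some genes that the rule names are not reported here.

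Differences are of mean log2(FPKM + 1) over cells, over all cells and within bins of 500 detected genes weighted by the smaller group. With 1 pool per genotype there is no replicate, so no test was made. No 2 members had identical profiles, and the highest correlation between 2 members was 0.687. Python 3.11.15, numpy 2.4.6, pandas 2.3.3, scipy 1.17.1 and matplotlib 3.10.9 were used, and the differences were tested on simulated data first. Alternatives changed the pseudocount, the filters on genes and cells, the receptor threshold and number, and the scaling.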

Additional observations from a re-analysis of the deposited data

Results flagged for a closer look

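The following genes differed by 1 or more in opposite directions between members and other CD8 cells of the WT and the KO pool. The difference between pools was not tested, since each genotype is 1 pool. Of all 3979 genes, 99 were in this way higher in WT and lower in KO members, and 4 the reverse. In each pool alone, 43.5% were at least 1 higher in WT members and 6.33% at least 1 lower in KO members. For the reverse, 1.76% were at least 1 lower in WT members and 14.5% at least 1 higher in KO members. Neither count was above what those shares alone would give.

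Lower in WT and higher in KO members were Itgb7 (-3.09 in WT and 1.64 in KO), Cxcr3 (-1.28 and 1.38) and Txnip (-1.11 and 1.24). With at least 3 receptors the KO value of Txnip was -1.15, no longer opposite to WT. Higher in WT and lower in KO members were Gimap7 (3.39 in WT and -2.12 in KO) and Sdha (2.49 and -2.90). The chaperonin gene Cct3 (2.32 and -1.74), the peroxiredoxin gene Prdx2 (2.71 and -1.01) and Ndufa2 of respiratory complex I (2.05 and -1.35) did the same. So did Ywhah, a 14-3-3 protein gene (2.82 and -1.33), Psmd13 of the proteasome (2.78 and -1.47), Cd96 (2.44 and -1.01) and Irf7 (1.24 and -1.08). Within bins the WT values of Prdx2 and Ndufa2 were -0.75 and -0.81, of the same sign as in KO. Cells with more detected genes were common among WT members only, and their part in these values was not tested.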

How the results depend on the processing

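No paired analysis was possible because each genotype is 1 pool of cells, and leaving out a replicate was not possible for the same reason. A gene listed at 0 was not read, which at this depth does not show that its mRNA was absent.

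The share of members was 43.3% in WT and 26.7% in KO. It was 57.6% in WT cells with 2000 genes or more, 27.8% in WT and 8.14% in KO with at least 3 receptors, 12.8% in KO without Pdcd1, 30% and 11.6% without Tigit, and 25.9% in WT cells with at least 1500 and under 2500 genes, a setting chosen after seeing the data. It was higher in WT than in KO in each of these settings. Among cells with at least 1500 and under 2500 genes the shares were close, 15 of 58 in WT (25.9%) and 17 of 71 in KO (23.9%).

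Of the measured genes, 10.1% were at least 1 higher and 0.653% lower in members of both pools, and 1.8% were higher and 38.7% lower in KO than in WT members. The settings below moved the number of such genes by over 1.5 times, and the values are percents of the genes measured in each setting, which may move less or the other way. Genes read in at least 1 cell left the number higher in both pools near the same (412 against 402) but made it 3.76% of the larger number measured. A pseudocount of 0.1 gave 19.8%, 1.21% and 3.69% for the first 3 of these, and one of 10 gave 2.51%, 0.251%, 0.496% and 12.7%. With genes measured in 40% of cells, which tests fewer genes, 15.9% were higher in both pools, 2.43% higher in KO and 49.7% lower in KO. In cells with 2000 genes or more, the first 3 were 13.7%, 1.18% and 6.02%. Within bins all 4 were 2.46%, 1.99%, 12% and 9.44%. A receptor threshold of 10 FPKM gave 18.8% higher in both pools and 3.15% higher in KO. At least 3 receptors gave 27.6%, 1.23% and 7.73%, and exactly 2 gave 4.11%, 1.32%, 10.8% and 26%. Without cells with Mki67 or Top2a, 7.05% were higher in both pools, 5.43% higher in KO and 28.5% lower in KO. Without cells with a marker of another cell type at 10 FPKM or more, Tyr included, 1.25% were lower in both pools and 9.51% higher in KO. Without cells with 4000 or more genes, a setting added after seeing the data, 3.98% were higher and 24.7% lower in KO.

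Of list medians past 1, 0 of 11 for KO minus WT members stayed past 1 with the same sign in all 13 alternatives. For members minus others, 0 of 3 in KO and 1 of 12 in WT did so. Of the gene differences past 1 that were checked, 22 of 31, 20 of 32 and 16 of 36 did so, in the same order. Some values changed sign. For KO minus WT members, the heat shock list was 0.10 in cells with 2000 genes or more and 0.46 within bins, and the co-stimulatory list was 1.04 within bins, 1.24 with exactly 2 receptors and 0.41 without cells with a marker of another type. The glycolysis list was 0.068 within bins, and the natural killer lectin list 0.12 with exactly 2. Gzmb was 1.13 and Tox 0.34 within bins. Stat5a was 0.56 with at least 3 receptors. Without marker-bearing cells, Cd27 was 0.41 and Ifi27l2a -1.15. For WT members minus others, the cell cycle list was -0.018 within bins and -0.17 with exactly 2, and the natural killer lectin list -0.44 with exactly 2. Klrc1 was -0.40 and -1.25, Tnfrsf18 -0.22 and -1.10, and Id2 -0.77 and -1.26 in those settings. With exactly 2 receptors, Capg was -1.01, Stat3 -1.05, Socs3 0.61 and Tpi1 -0.29, and Socs3 was 0.32 without marker-bearing cells. For KO members minus others with at least 3 receptors, Cd5 was 0.43, Tyk2 -0.59 and Txnip -1.15, and Ly6c2 was 0.96 without marker-bearing cells. The cause of these changes was not tested.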
